A study of Mus musculus with 2 samples.

Results

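Early neural-like cells were followed in mouse gastruloids, aggregates of embryonic stem cells that begin to form the body axis in culture. A member was a cell with at least 1 UMI (a molecular tag that lets each captured RNA molecule be counted once) for at least 3 of 7 genes, Onecut2, Sox1, Pou3f2, Tubb3, Ebf2, Ebf3 and Insm1. The rule took 179 of 19294 kept cells. The WT-labelled library gave 106 members of 8707 cells and the library labelled Sp5/8 dko gave 73 of 10587. Both libraries came from the R1 embryonic stem cell line, the first labelled WT and the second labelled a double mutant of Sp5 and Sp8. In both, about 300 cells per well were aggregated in serum-free N2B27 medium, given 3 µM CHIR (a GSK3 inhibitor that switches on Wnt signalling) after 2 days, and collected 12 hours later at day 2.5. The aggregates of each genotype were pooled into 1 library, so no difference between genotypes has a replicate check and none was tested. The labels do not say how many mutant clones were used. All intervals below are 95% intervals of counting error only.

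The cell totals, depth and a mismatch with the labels bear on every comparison. The kept cells held 97157331 UMIs in the WT-labelled library and 97644169 in the dko-labelled library, with medians of 10571 and 8637 per cell. Sp5, the first targeted gene, reached 109 CPM (UMIs of the gene scaled to a common library total) in the non-member cells of the WT-labelled library and 479 CPM in those of the dko-labelled library. Sp8, the second, reached 20.7 and 40.1 CPM. Both were thus higher where the label says they were removed. The labels do not say which part of either gene was deleted, so these 3′ counts cannot settle whether the labels are right. The libraries are therefore called by their labels throughout, WT-labelled and dko-labelled. They shared 27 kept barcodes, against 13.6 had the barcodes been drawn independently, and no member carried a shared one.

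During neurogenesis, SoxB1 factors such as Sox1 mark dividing neural progenitors. Proneural basic helix-loop-helix factors then push single progenitors out of the cell cycle while Delta ligands hold back their neighbours through Notch. Insm1, the Ebf family and Onecut factors follow in new neurons, and Tubb3, a neuron-enriched tubulin, builds their processes. Gastruloids at this stage are mostly epiblast-like and streak-like, and neurons are not their main product.

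The members formed 2 unlike groups. Cells were clustered without the 7 rule genes, and 1 small cluster, led by Atoh1, Nhlh1, Ppp1r17, Cartpt, St18 and Chgb beside Ebf3, Insm1, Ebf2 and Onecut2, held 40 and 33 cells in the libraries labelled wild type and double knockout. It was picked as the cluster with the highest summed level of Dcx, Stmn2, Elavl3, Elavl4, Map2 and Ina, neuronal markers outside the rule. Their sum was 1634 CPM there and 230 CPM in the next highest cluster, so the first is called neuronal-like. Since these genes picked the cluster, their levels in its cells are no independent support for the name. Stmn2 was also in 47.7% and 39.3% of non-members. Of the 73 cells in the neuronal-like cluster 67 were members, 37 and 30 by library, or 91.8% of the cluster. They made up 37.4% of all members and are called the neuronal members. The other 112 members, 69 and 43, lay outside it and are called the remaining members. Most of these, 60 and 37, fell in a large cluster of 5273 cells led by Sox1, Irx3, Ptn, Irx5 and Greb1l, which stays unnamed because markers of no single class defined it. The division was made after the clusters were seen, and the genes of both groups also shaped the clusters, so their differences are descriptions.

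The promoters of 3 genes that lead the neuronal members are shown because they carry, just before the transcript start, a motif of a factor class found in these cells. Each is the 120 bases before the start on the gene's strand, from RefSeq on GRCm38.p6, and overlaps no annotated exon. Capitals mark CAGCTG, an E-box bound by proneural factors, or ATTGAT, an Onecut site. Nhlh1 (chr1:172057597-172057716, minus strand) has ATTGAT from 90 bases before the start, Robo2 (chr16:74411826-74411945, minus strand) has CAGCTG from 37 bases before, and Elavl4 (chr4:110287528-110287647, minus strand) has CAGCTG from 46 bases before. Robo2 and Elavl4 have 3 and 4 starts in the table, of which 1 and 2 hold either motif in this stretch. The start shown was thus chosen for its motif, and so were the genes. Isl1 and Nhlh2 also hold a motif there, but in stretches that overlap an exon of the same gene. Atoh1, Cartpt, Chgb, Slc1a2, Cryba1, Lhx2 and Dcx hold neither, so the genes shown do not stand for all leading genes. The share of all genes with either motif in this stretch was not computed.
Nhlh1: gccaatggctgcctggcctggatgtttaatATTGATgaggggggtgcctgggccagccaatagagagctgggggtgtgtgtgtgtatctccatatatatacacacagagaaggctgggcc
Robo2: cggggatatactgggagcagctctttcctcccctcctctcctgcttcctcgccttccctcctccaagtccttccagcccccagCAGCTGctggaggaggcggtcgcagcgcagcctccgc
Elavl4: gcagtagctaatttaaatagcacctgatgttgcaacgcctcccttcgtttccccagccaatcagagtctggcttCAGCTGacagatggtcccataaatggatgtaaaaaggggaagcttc

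Cells with more markers were more often neuronal members, as a description of the rule's own values. In the WT-labelled library, 68 members had exactly 3 markers, 13 had 4, 21 had 5 and 4 had 6. In the dko-labelled library the numbers were 51, 17, 5 and 0. Of the cells with at least 4 markers, 29 of 38 and 18 of 22 were neuronal members. Of those with exactly 3 markers, 8 of 68 and 12 of 51 were, and with exactly 4, 5 of 13 and 13 of 17, so the 2 groups overlapped in marker number. Just outside the rule, 421 and 359 cells had 2 markers, and 2 and 3 of them lay in the neuronal-like cluster.

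**Figure D1:**
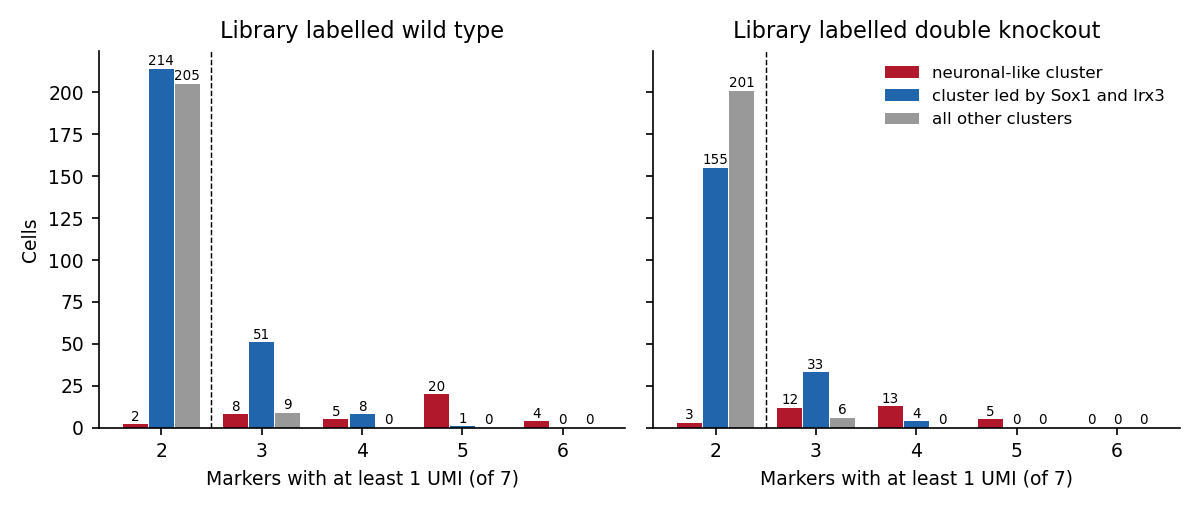
Cells (vertical axis) by the number of the 7 rule markers with a UMI (horizontal axis), split by cluster, in each library; the dashed line is the rule's threshold of 3. Cells with 5 or 6 markers sit almost entirely in the neuronal-like cluster (24 of 25 and 5 of 5), while cells with 2 or 3 markers sit mainly elsewhere.

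Tubb3 alone is a weak marker here. It had a UMI in 58.1% and 54.6% of all kept cells, and among cells led by Dppa3 and Rhox6, which resemble naive stem cells and should lack neuronal transcripts, in 54.2% and 50.4%. Median depths there were 11543 and 9365 UMIs. By contrast Ebf3 was in 0 of 742 and 0 of 993 of the Dppa3-led cells. Onecut2 was in 3.23% and 3.52% of them, near the 3.72% and 2.75% of non-members. Insm1 was in 1.08% and 0.101%, against 0.372% and 0.181% of non-members, and Ebf2 in 0.943% and 0.302%, against 0.477% and 0.361%. Sox1 was in 0.404% and 0.101%, against 3.45% and 2.02%, and Pou3f2 in 0.404% and 0%, against 0.686% and 0.418%.

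Fewer cells qualified at equal depth. With every cell thinned to 5000 UMIs before the rule was applied, 51 of 8296 cells in the WT-labelled library (0.615%, interval 0.458 to 0.808) and 33 of 9970 in the dko-labelled library (0.331%, 0.228 to 0.465) qualified, and 411 and 617 shallower cells were left out. Unthinned, the shares were 1.22% (0.998 to 1.47) and 0.690% (0.541 to 0.866), and 1.24% and 0.632% among cells of at least 5000 UMIs. Members held medians of 10378 and 7393 UMIs, against 10572 and 8650 in non-members. The share was higher in the WT-labelled library both ways and the intervals did not overlap unthinned, while thinned they overlapped slightly. The neuronal members alone were 0.425% (0.299 to 0.585) and 0.283% (0.191 to 0.404) of kept cells, with overlapping intervals. Droplets called as doublets were kept in the main counts. They made up 8.11% and 3.33% of the neuronal members, 17.4% and 14.0% of the remaining members, and 6.87% and 8.46% of non-members.

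The markers that chose the members had unlike levels in the 2 groups, given here as a description. Tubb3 reached 3688 and 4412 CPM in the neuronal members of the libraries labelled wild type and double knockout, 253 and 366 in the remaining members and 93.7 and 102 in non-members. The Tubb3 of the neuronal members is thus far above the widespread low level. Onecut2, a cut-homeodomain factor of new neurons, reached 528 and 397 CPM in neuronal members and 69.6 and 109 in the remaining members. Insm1, a zinc-finger factor of neurons leaving the cycle, reached 214 and 183 CPM against 12.3 and 21.8. Ebf3 and Ebf2, helix-loop-helix factors of neuronal differentiation, followed the same order, with Ebf3 at 192 and 213 CPM against 4.49 and 14.6. Pou3f2, a POU factor active in both progenitors and neurons, did not separate them as clearly, at 72.3 and 84.3 CPM against 57.3 and 46.1.

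Sox1, the progenitor factor, ran the other way. It had UMIs in 3 of 37 and 1 of 30 neuronal members, at 15.7 and 9.91 CPM, but in 49 of 69 and 19 of 43 remaining members, at 104 and 75.2 CPM. Non-members held 4.27 and 2.76 CPM. In the remaining members the commonest set was Onecut2 with Sox1 and Tubb3, in 18 and 11 cells. Sox1 with Pou3f2 and Tubb3 followed in the WT-labelled library, in 15 cells, and Onecut2 with Pou3f2 and Tubb3 in the dko-labelled library, in 9. In the neuronal members any of Ebf2, Ebf3 and Insm1 was present in 35 of 37 and 29 of 30 cells. Detection rested on single molecules in the remaining members, where 69.7% and 79.6% of the detected markers other than Tubb3 had 1 UMI, against 36.4% and 35.7% in the neuronal members.

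**Figure D2:**
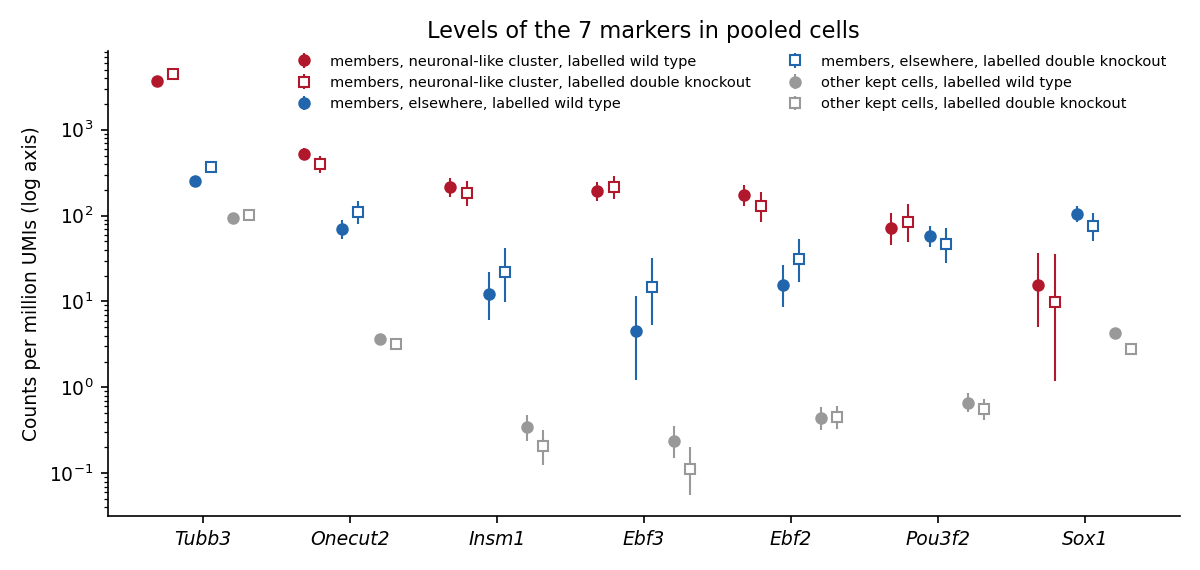
CPM of the 7 rule markers (log axis) in pooled cells of each group and library; bars are exact Poisson 95% intervals. Tubb3, Onecut2, Insm1, Ebf3 and Ebf2 are highest in the neuronal members, whereas Sox1 is highest in the remaining members, at 104 and 75.2 CPM.

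Each marker was also left out of the rule in turn and read in thinned cells chosen by at least 2 of the other 6. Its own UMIs thus played no part in picking those cells. The rule itself was set with earlier results of these data known, so the shares are descriptions and no independent check of it. Ebf3 had a UMI in 11.1% (24 of 217) and 8.76% (17 of 194) of the cells so chosen, against 0.149% and 0.0614% of the rest. Insm1 had one in 11.3% and 6.32% against 0.247% and 0.153%, Ebf2 in 11.1% and 10.3% against 0.297% and 0.255%, and Onecut2 in 24.4% (40 of 164) and 20% (25 of 125) against 1.94% and 1.76%. Pou3f2 had one in 9.79% and 4.97% against 0.531% and 0.337%, and Tubb3 in 62.7% and 67.3% against 35.7% and 37.5%. The intervals of these 6 markers lay apart from those of the rest in both libraries. Sox1 was the exception. It had a UMI in 10.4% (15 of 144; interval 5.95 to 16.6) against 2.29% in the WT-labelled library, but in 1.57% (2 of 127; interval 0.191 to 5.57) against 1.32% in the dko-labelled library. In the latter, Sox1 was thus not detectably more frequent among cells picked by the other markers.

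Against all other kept cells of the same library, the 179 members together had 344 of 8321 tested genes at least 2-fold higher in both libraries (4.13%) and 67 at least 2-fold lower (0.805%). A gene was tested at a mean of at least 10 CPM in members or non-members, ratios used a pseudocount of 0.5 CPM, and the 7 rule genes were left out. The highest were Atoh1, Cartpt, Chgb, Ppp1r17 and Nhlh1. All of these passed the filter only through the members, so they had to lie higher there on average. The lowest included the streak genes Mixl1, without a UMI in 179 members, Tdgf1, Fgf8, T and Eomes, the epiblast genes Fgf5 and Trh, and Nanog. These totals mix the 2 groups. Alone, the neuronal members had 928 of 8810 genes higher (10.5%) and 446 lower (5.06%), and the remaining members 122 of 8125 higher (1.5%) and 44 lower (0.542%). Of the 446, 135 had no UMI in at least 1 library. With these put at the bound that 3 counts allow, 342 were lower, and 42 rather than 44 in the remaining members. Set against the remaining members, the neuronal members had 662 of 8808 genes at least 2-fold higher in both libraries (7.52%) and 369 lower (4.19%). A gene that passed the filter only through the members was on average higher there by construction. The counts of each group against non-members are thus also given for the 7601 genes with a mean of at least 10 CPM in non-members. Of these, 338 (4.45%) were higher and 446 (5.87%) lower in the neuronal members, and 42 (0.553%) and 44 (0.579%) in the remaining members. These shares are the background for the list counts below. The counts for all members together, and for the 2 groups against each other, were not taken on these 7601 genes. The neuronal members rest on 318046 and 201744 UMIs, so 3 counts, the most that a count of 0 allows, stand for 9.43 and 14.9 CPM.

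Proneural and neurogenic factors were among the genes higher in the neuronal members. Of a 28-gene list, 8 genes had at least 10 CPM in non-members, and all 8 were at least 2-fold higher in both libraries (Hes6, Dll3, Cbfa2t2, Btg2, Tcf4, Sox4, Sox11 and Mxd4). Their medians were 2.02 and 1.76 on the log2 scale against −0.06 and −0.07 for all genes so tested, of which 4.45% were higher. Another 12 genes of the list were tested only through their level in the neuronal members, so they had to lie higher there on average, and are given as levels. Atoh1, a proneural factor of dorsal hindbrain and sensory neurons, stood at 135 CPM in 7 cells and 79.3 CPM in 3 cells of the libraries labelled wild type and double knockout, against 0.07 and 0.06 CPM in non-members. Nhlh1, a helix-loop-helix factor of newly born neurons, stood at 75.5 and 134 CPM in 13 and 14 cells, against 0.07 and 0.03. Neurod1, a differentiation factor, stood at 270 and 99.1 CPM against 5.53 and 5.42. St18, a zinc-finger factor, was at 66.0 and 79.3 CPM against 0.02 in both. Atoh1 was thus found in a minority of the neuronal members. The upstream proneural factors were scarce, with Neurog2 in 0 and 1 cells and Neurog1 in 2 and 3.

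Of the cytoskeletal and RNA-binding genes of neurons, 23 had at least 10 CPM in non-members. Of these 18 were higher and none lower, with medians of 2.23 and 2.06. Among all genes so tested, 4.45% were higher and 5.87% lower. Stmn2, Elavl3 and Ina, which helped to pick the neuronal-like cluster, are among the 18 and had to be high there. Map1b, a microtubule-binding protein of growing axons, stood at 1144 and 1333 CPM against 89.0 and 77.5 in non-members. Gap43, a growth cone protein, stood at 484 and 302 CPM against 18.8 and 16.2. Map1b and Gap43 had counting intervals well apart from those of non-members in both libraries. Elavl4 and Dcx helped to pick the cluster and were tested only through the neuronal members, so they are given as levels. Elavl4, a neuronal RNA-binding protein, stood at 236 and 134 CPM against 1.57 and 1.13. Dcx, a microtubule protein of migrating neurons, stood at 110 and 124 CPM against 0.99 and 1.15. Of 8 genes of axon guidance and adhesion with at least 10 CPM in non-members, 5 were higher (Robo1, Epha7, Efna5, Nrp2 and Cdh2). Robo2, a Slit receptor tested only through its level in the neuronal members, stood at 104 and 99.1 CPM against 0.47 and 0.49.

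A further list held genes of vesicles and secretion that the repressor Rest is known to silence outside neurons, and Rest itself. Of 5 of its genes with at least 10 CPM in non-members, Syt11 was higher and Rest lower, with medians of 0.00 and −0.07. Most of the list is nearly absent from non-members, and 17 genes were tested only through the neuronal members, so the list's count of higher genes is not given as a result. Chgb, a granule protein, stood at 113 and 124 CPM against 0.42 and 0.31. Syp, a synaptic vesicle protein, stood at 84.9 and 94.2 CPM against 1.65 and 1.54. Rest stood at 15.7 and 19.8 CPM, from 4 and 3 cells, against 87.9 and 87.4 in non-members.

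Relatives of the rule genes showed which family members were present. Ebf1 reached 494 and 397 CPM in the neuronal members, more than Ebf2 or Ebf3, but it also stood at 31.0 and 27.8 CPM in non-members. Onecut1, tested only through the neuronal members, reached 44.0 and 84.3 CPM against 0.59 and 0.40. Pou3f1, a POU factor of epiblast and early neurons, reached 827 and 590 CPM against 80.6 and 73.4, the only one of 14 tested primed epiblast genes that was higher. CPM in 3′ libraries are not corrected for length, since each molecule is tagged once.

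Notch signalling genes differed in both directions. Of 12 genes with at least 10 CPM in non-members, 4 were higher (Notch1, Dll3, Jag1 and Numbl) and 3 lower, the latter 1 once genes without a UMI were put at their bound. Among all genes so tested, 4.45% were higher and 5.87% lower. Dll3, which acts inside the producing cell, stood at 418 and 342 CPM against 20.1 and 23.2. Dll1 and Dll4 were tested only through the neuronal members, so they had to lie higher there on average and are given as levels. Dll1 stood at 44.0 and 14.9 CPM against 2.67 and 1.15, and Dll4 at 22.0 and 9.91 CPM against 0.03 and 0. Notch1, a receptor, stood at 69.2 and 104 CPM against 24.4 and 17.7. Hes5, a Notch target of progenitors, had no UMI in the 37 cells of the WT-labelled library and UMIs in 2 of 30 in the other, at 29.7 CPM.

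Cell cycle transcripts were lower in the neuronal members. None of 40 S phase genes and 52 G2/M genes was higher, and 8 and 21 were lower. Among all genes with at least 10 CPM in non-members, 4.45% were higher and 5.87% lower. S phase genes made up a median of 0.168% and 0.148% of a cell's UMIs in the neuronal members, against 0.536% and 0.507% in non-members. G2/M genes made up 0.197% and 0.220% against 0.882% and 0.840%. Top2a, a topoisomerase of dividing cells, had UMIs in 13 of 37 and 11 of 30 neuronal members, and in 85.9% and 85.2% of non-members. The neuronal members were shallower, with medians of 7680 and 6388 UMIs against 10572 and 8650. Of 14 genes of cycle exit with at least 10 CPM in non-members 4 were higher, including Btg2, an antiproliferative factor, at 626 and 496 CPM against 199 and 156, and Cdkn1c, described below.

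Streak genes were mostly lower, and more pluripotency genes were lower than higher. The 19 listed primitive streak genes summed to 81.7 and 69.4 CPM, against 694 and 940 in non-members. Of 11 tested, 10 were lower by the fitted ratio, and 6 once genes without a UMI were put at their bound, where the medians were −2.05 and −1.74. Among all genes with at least 10 CPM in non-members, 5.87% were lower and 4.45% higher. Wnt3, a ligand that starts the streak, had no UMI, at least 4.78-fold and 3.81-fold lower. Lefty1, a Nodal inhibitor, had none either, at least 6.02-fold and 3.46-fold lower. Pou5f1, the core pluripotency factor, stood at 101 and 59.5 CPM in 9 and 8 cells, against 661 and 682 in non-members. Fgf5, an epiblast ligand, stood at 3.14 and 9.91 CPM against 62.7 and 91.7. Of 14 tested primed epiblast genes 9 were lower and 1 higher, with medians of −2.20 and −1.89. Of genes shared by both pluripotent states, 13 had at least 10 CPM in non-members. Of these 7 were lower and Dppa4 was higher, with medians of −1.45 and −1.24. Zfp57 was also higher, but it was tested only through the neuronal members. Over all 15 tested genes of this list the medians were −1.35 and −0.01. Of 5 tested naive genes 3 were lower.

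Some markers of other cell types were higher in the neuronal members. Of 13 two-cell-like, 11 germ cell and 18 extraembryonic endoderm genes, 1, 3 and 5 could be tested and none was higher. Twist1, the 1 tested gene of 12 mesoderm genes, was higher, and of 2 tested surface ectoderm and trophoblast genes none was higher and Krt18 was lower. Of 17 neural crest and placode genes 7 were tested and 5 were higher, 6 of the 7 being tested only through the neuronal members. Sox9 and Msx1, which neural cells also use, were among the 5. The 17 genes summed to 170 and 233 CPM against 41.6 and 36.3. The part of these genes in the other differences was not tested. Among stress genes only Ddit3 was higher, at 50.3 and 34.7 CPM, from 8 and 6 cells, against 5.66 and 6.31. It was tested only through the neuronal members. The list's medians were −0.29 and −0.82. The part of Ddit3 in the other differences was not tested. The 41 genes of cilium structure and transport, named because the study's title concerns primary cilia, had medians of 0.06 in both libraries over 32 tested genes, beside 0.05 for all. Kif3a, a ciliary motor subunit, and Rfx3, a ciliary transcription factor, were the 2 that were higher. Rfx3, tested only through the neuronal members, stood at 50.3 and 59.5 CPM against 9.73 and 7.79.

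**Figure D3:**
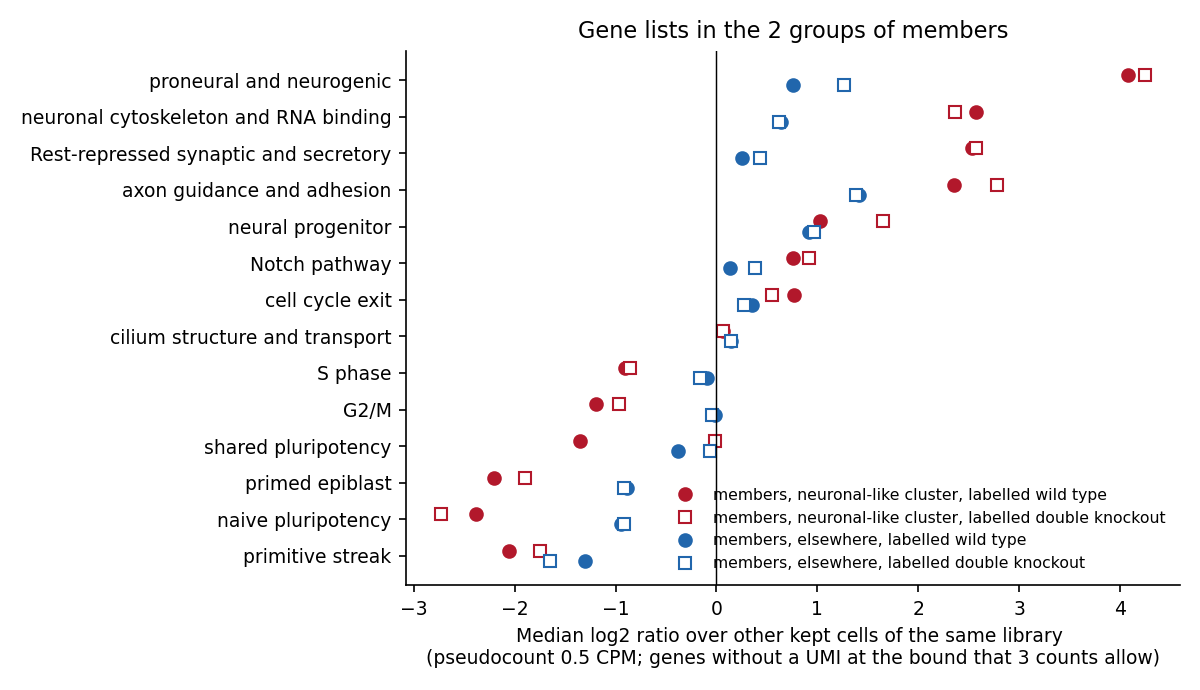
Median log2 ratio of each gene list over the other kept cells of the same library (horizontal axis), for neuronal members and remaining members, with genes lacking a UMI at the bound that 3 counts allow. Genes tested only through their level in the members had to lie higher there on average, which raises the medians of lists rich in them. The cytoskeletal list also holds Dcx, Stmn2, Elavl3, Elavl4, Map2 and Ina, which picked the neuronal-like cluster. The proneural, cytoskeletal, Rest-repressed and axon guidance lists lie at 2.35 to 4.24 in the neuronal members and at 0.25 to 1.42 in the remaining members, while the S phase and G2/M lists lie at −1.19 to −0.85 and at −0.17 to −0.01.

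Retinoic acid genes gave a mixed picture. Of 5 with at least 10 CPM in non-members, 1 (Crabp1) was higher and 3 lower, the latter 2 once genes without a UMI were put at their bound. Another 3 were tested only through the neuronal members, so they had to lie higher there on average. Stra6 and Cyp26b1 were among these. Crabp1, a cytoplasmic retinoic acid binding protein, stood at 663 and 481 CPM in 20 and 18 neuronal members, against 12.8 and 14.6 CPM in non-members. Cyp26b1, an enzyme that degrades retinoic acid, stood at 18.9 and 19.8 CPM against 0.25 and 0.20. Rara, a nuclear receptor of retinoic acid, was lower, at 3.14 and 4.96 CPM against 21.6 and 20.1. Rarg, another, had no UMI in the neuronal members, and at its bound was not 2-fold lower.

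Factors that mark kinds of neurons were found in some of the cells. Over both libraries, Atoh1 had a UMI in 10 of 67 neuronal members. Of these 10 cells, 8 had Lhx2, 4 had Lhx9 and 4 had Barhl2, LIM and BarH homeodomain factors of dorsal interneurons, and 1 had Isl1, a LIM factor of motor and sensory neurons. Over all 67 cells, Lhx2 had a UMI in 27, Isl1 in 22, Lhx9 in 10 and Barhl2 in 8. Both libraries held Atoh1 cells, 7 and 3. In the Dppa3-led cells Atoh1 had a UMI in 0.270% and 0.302%. These are cells of 2 libraries at shallow depth, so the overlaps are descriptions.

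Among neural progenitor genes, more were higher than lower in both groups of members. In the remaining members, 5 of 16 tested neural progenitor genes were higher and none lower, and the 32 listed genes summed to 1678 and 1430 CPM against 977 and 881 in non-members. In the neuronal members 11 of 21 were higher and 2 lower, and the sums were 3257 and 2944 CPM. Among genes with at least 10 CPM in non-members, 2 of 13 were higher in the remaining members, and 4 of 13 were higher and 2 lower in the neuronal members. Over all genes so tested, 0.553% were higher in the remaining members, and 4.45% were higher and 5.87% lower in the neuronal members. Sox21, a SoxB2 factor tested only through the remaining members, stood there at 31.4 and 19.4 CPM against 2.83 and 1.56 in non-members. Ptn, a secreted growth factor of neural progenitors, stood at 666 and 442 CPM against 104 and 66.5, and in the neuronal members only at 123 and 188. Ptn is also a leading gene of the large cluster that held 60 and 37 of the remaining members. They were not compared with that cluster's other cells. The differences given here and in the next paragraph may thus be shared by the whole cluster, which was not tested. Hes5, also tested only through the remaining members, stood at 16.8 and 7.28 CPM against 2.18 and 1.03. Of 8 proneural and neurogenic genes with at least 10 CPM in non-members, Sox4 was higher. Dll1 and Gadd45g, a growth arrest gene, were tested only through the remaining members. Dll1 stood at 23.6 and 12.1 CPM, and Gadd45g at 19.1 and 9.71 against 2.04 and 0.89. Of 8 genes of axon guidance and adhesion with at least 10 CPM in non-members 4 were higher (Epha7, Efna5, Nrp2 and Cdh2), with medians of 0.97 and 1.18. Id1, a BMP target that blocks proneural factors, stood at 122 and 114 CPM against 21.6 and 22.2.

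Their cell cycle and pluripotency transcripts lay nearer to those of other cells. None of the 40 S phase and 52 G2/M genes was 2-fold different, and G2/M genes made up a median of 0.923% and 0.763% of UMIs. Pou5f1 stood at 321 and 303 CPM, between the neuronal members and non-members. Of 11 tested streak genes 7 were lower, with medians of −1.30 and −1.65 with genes lacking a UMI at their bound. Among all genes with at least 10 CPM in non-members, 0.579% were lower. Sox2, shared by pluripotent and neural progenitor cells, stood at 66.2 and 70.4 CPM against 32.9 and 24.4. The doublet share of 17.4% and 14.0% given above applies to this group, and without the called doublets all members together had 436 genes higher and 110 lower.

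The 5 genes outside the rule that followed the number of markers most closely are given over 12 points, the cells with 0, 1, 2, 3, 4 and at least 5 markers in each library. Tmsb4x, an actin-binding peptide, had a Pearson r of 0.988 and went from 555 and 491 CPM in cells without markers to 4887 and 5431 CPM in those with at least 5. Rnf165, a ubiquitin ligase of motor axons, had an r of 0.983, and went from 4.83 and 4.72 to 126 and 148 CPM. Cited2, Gap43 and Ncam1 came next, at 0.975, 0.975 and 0.971. These points share cells with the rule and depth differs between them, so the correlations are descriptions.

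In promoters, CAGCTG was more frequent among genes higher in the neuronal members, but these are an unlike set of genes. Of the 928 higher genes only 338 had at least 10 CPM in non-members, while all 446 lower genes had. The shares were not compared among genes of equal level in non-members, so the part of that level was not tested. The RefSeq table (GRCm38.p6, from 250 bases before to 50 after each start) matched 7052 of 8810 tested genes, 688 of the 928 higher and 330 of the 446 lower. On either strand CAGCTG was in at least 1 window of 26.3% of the higher genes, 14.5% of the lower and 16.2% of all tested. Per window, since genes with several starts have more, the shares were 21.8%, 12.2% and 14.0%, and 16.3% over all 32851 windows. ATTGAT was in 4.46%, 3.67% and 3.57% of windows, with 7.54% over all. ACAAAG, a Sox site, was in 19.0%, 13.8% and 13.4%, with 18.7% over all. GGGCGG, the GC box bound by Sp and Klf factors, was in 72.7%, 73.6% and 73.3% of genes, and in 35.7% of all windows. Each motif was searched on its own on both strands, so matches of different motifs may overlap. A match is a string of letters and no measured binding.

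The libraries were then compared within the members. Over all members, 172 of 8015 genes were at least 2-fold higher in the dko-labelled library (2.15%) and 202 at least 2-fold lower (2.52%). Counting intervals lay apart from 0 for 99 and 99 of them. In the neuronal members the numbers were 796 (9.74%) and 858 (10.5%) of 8173, of which 111 and 142 had intervals apart from 0. In the remaining members they were 265 (3.41%) and 303 (3.9%) of 7774, of which 92 and 99 had. Within the neuronal and the remaining members, most 2-fold differences thus had intervals that reached 0. Culture, library and genotype cannot be told apart in any of them.

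Sp5 and Sp8 showed the same direction in members as elsewhere. Sp5 stood at 56.6 and 124 CPM in the neuronal members of the libraries labelled wild type and double knockout, from 8 and 9 cells, and at 90.9 and 507 CPM in the remaining members. Its log2 ratio was 1.12 (interval 0.20 to 2.09) in the neuronal members, 2.47 (2.10 to 2.87) in the remaining members and 2.13 in non-members. Sp8 stood at 12.6 and 29.7 CPM in the neuronal members, a ratio whose interval spans 0, and at 25.8 and 60.7 CPM in the remaining members (log2 ratio 1.22, 0.36 to 2.12).

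Cdkn1c was 1 of the genes lower in the members of the dko-labelled library, with a log2 ratio of −2.44 (−3.22 to −1.78) over all members. It encodes p57, a cyclin-dependent kinase inhibitor, is imprinted, and lies on the minus strand of chromosome 7 at 143458339 to 143461050 (GRCm38, GENCODE M21). The neuronal members held 522 CPM (166 UMIs in 26 of 37 cells) in the WT-labelled library and 69.4 CPM (14 UMIs in 6 of 30 cells) in the dko-labelled library, a log2 ratio of −2.90 (−3.81 to −2.12). The remaining members held 44.9 and 12.1 CPM and non-members 18.9 and 6.66, a log2 ratio of −1.44 (−1.64 to −1.37). In both libraries Cdkn1c was thus higher in neuronal members than elsewhere, 27.0-fold and 9.76-fold.

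Grb10 differed between libraries mainly outside the neuronal members. It encodes an adaptor that restrains growth factor signalling and is imprinted, with expression known to come from the maternal copy in most tissues and from the paternal copy in neurons. It lies on the minus strand of chromosome 11 at 11930508 to 12038683. Non-members held 66.8 CPM in the WT-labelled library and 10.0 CPM in the dko-labelled library, a log2 ratio of −2.68 (−2.84 to −2.64), and the remaining members 95.4 and 21.8 CPM, −2.10 (−3.30 to −1.13). The neuronal members held 81.7 CPM (26 UMIs in 17 of 37 cells) and 54.5 CPM (11 UMIs in 7 of 30 cells), −0.58 (−1.75 to 0.48). Within the dko-labelled library Grb10 was 5.24-fold higher in neuronal members than in non-members (log2 interval 1.44 to 3.29), and within the other library 1.22-fold (−0.32 to 0.84). Non-members of the WT-labelled library also had more cells with a low share of chromosome 11 UMIs (17.8% against 5.87% at or under 0.8 times the typical share). Among cells with at least 4000 UMIs, 5 of 36 and 1 of 30 neuronal members had such a low share, and its part in the Grb10 difference was not tested.

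Other library differences were smaller or rested on few cells. Neurod1 was lower in the neuronal members of the dko-labelled library (99.1 against 270 CPM, log2 ratio −1.44, −2.23 to −0.73). Rtn1 and Map1b, genes of neuronal processes, had intervals that span 0, at 0.05 (−0.30 to 0.41) and 0.22 (−0.01 to 0.45). In the remaining members Meis2, a homeodomain factor of neural and somitic tissue, stood at 71.8 and 7.28 CPM (−3.22, −5.62 to −1.69), from 28 and 2 cells. Eomes, a streak factor, stood at 17.96 and 80.1 CPM (2.13, 1.25 to 3.12), against a log2 ratio of 1.01 in non-members. Over all members the Eomes ratio was 1.94, 0.53 with called doublets left out, and −3.14 in cells thinned before the rule was applied. Lefty1 stood at 31.4 and 116 CPM, the latter from 48 UMIs in only 5 cells.

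**Figure D4:**
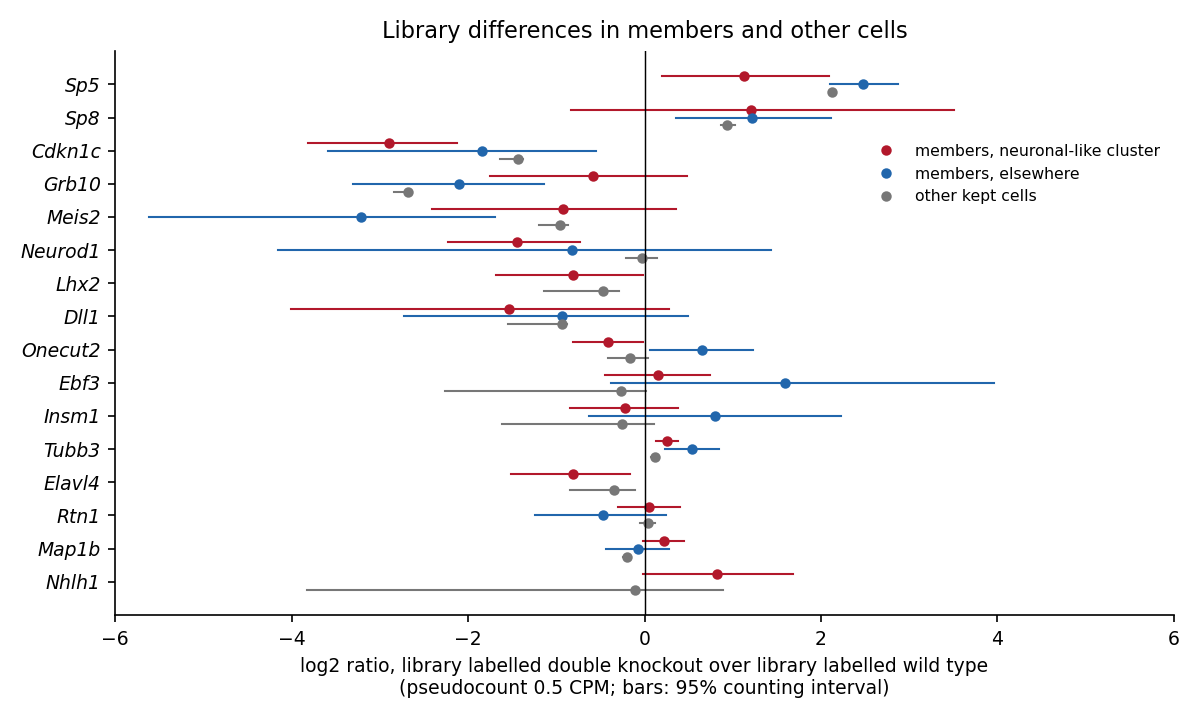
Log2 ratio of the dko-labelled library over the WT-labelled library (horizontal axis) for 16 named genes in neuronal members, remaining members and non-members; bars are 95% counting intervals, and pairs with fewer than 10 UMIs are left out. The intervals of Cdkn1c lie below 0 in all 3 groups and those of Grb10 in remaining members and non-members, while the interval of Grb10 in the neuronal members reaches from −1.75 to 0.48.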

How the data were processed

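Single-cell libraries (10x 3′ v3.1) of 2 gastruloid pools were used. The deposited matrices hold raw UMI counts per gene and barcode. STARsolo, STAR 2.7.9a, Seurat 5.1.0 and mm10 are named by the submitters' processing notes, with no order given, and strand handling is not given in the sources used here, so genes with an antisense partner (Robo2, Ebf3, Sox21, Lhx2, Neurod1 and Cdkn1c among those named) are less certain. Barcodes with at least 2500 UMIs, at least 1000 genes and at most 10% mitochondrial counts were kept. Counts were summed over cells and scaled to CPM. Log2 ratios used a pseudocount of 0.5 CPM, and exact conditional Poisson intervals did not. Shares have Clopper-Pearson intervals. Doublets were scored with a Scrublet-type simulation and kept. Cells were clustered with the Leiden method (leidenalg 0.10.2) without the 7 rule genes. Thinning was to 5000 UMIs. With 1 library per genotype, no test was run, and a called gene is one past 2-fold at a mean of at least 10 CPM. Genes were named by rule: the rule genes with Sp5 and Sp8, the highest and lowest by the less extreme ratio of the 2 libraries, the most different between libraries, the largest ratios and defining genes of each list, and the 5 that best followed marker number. Jag1 and Top2a, members of the lists, were named after their values were seen. The members and the lists were chosen with earlier results of these data known. Genes were located with GENCODE M21, which matched 32235 of 32285 identifiers. Alternatives changed the marker minimum, marker set, depth, filters, doublets, scaling, cell weighting, pseudocount and comparison cells. The script was tested on simulated data. Python 3.11.15, numpy 2.4.6, scipy 1.17.1, pandas 2.3.3 and scikit-learn 1.9.0 were used. A few genes are not reported here.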

Additional observations from a re-analysis of the deposited data

Results flagged for a closer look

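The search covered only genes named by rule, with a mean of at least 20 CPM in the members compared. They also had to be at least 2-fold different between libraries there. For 7 such genes the ratio between libraries had opposite signs in members and in non-members, with both counting intervals apart from 0. Genes most different between libraries were among those named, so 7 is not a count over all genes. The difference between the 2 ratios was not tested. Over all members, the log2 ratio of the dko-labelled library over the other was 1.73 for Lefty1 against −0.14 in non-members, and 1.52 for Plaat3 against −0.15. With at least 2 markers these ratios were 0.98 for Lefty1 and 0.16 for Plaat3, and at a mitochondrial maximum of 5% that of Lefty1 was 0.44. In the neuronal members it was 2.20 for Sox2 (−0.43 in non-members), 2.88 for Zfp239 (−0.10), 2.56 for Dnajc12 (−0.17), 2.37 for Sox21 (−0.70) and 2.56 for Ofd1 (−0.16). Sox2 came from 4 cells in each library, and Lefty1 from 12 and 5 members.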

How the results depend on the processing

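No paired analysis was possible because each genotype had 1 library. Members were 1.22% and 0.690% of kept cells in the libraries labelled wild type and double knockout. The shares were 6.05% and 4.08% with at least 2 markers, 0.436% and 0.208% with at least 4, 0.615% and 0.331% thinned, and, with 1 marker left out of the rule, 0.701% and 0.293% (Onecut2), 0.724% and 0.510% (Sox1), 0.861% and 0.520% (Pou3f2) and 0.517% and 0.246% (Tubb3). The share was higher in the WT-labelled library in each of these. The 4 counts of genes, given in the order higher in members, lower in members, higher and lower in the dko-labelled library, were 344, 67, 172 and 202. They were 40, 0, 10 and 6 with at least 2 markers, 779, 316, 790 and 972 with at least 4, and 683, 311, 887 and 1037 thinned. They were 539, 150, 545 and 524 without Onecut2, 535, 121, 283 and 441 without Sox1, and 674, 249, 703 and 730 without Tubb3. They were 760, 272, 890 and 1088 at a mean of at least 1 CPM and 85, 25, 2 and 6 at 50 CPM. They were 928, 446, 796 and 858 in the neuronal members, and 122, 44 and 265 for the first 3 in the remaining members, a division chosen after seeing the data. With genes tested by their level in non-members alone, also added later, the first 2 counts were 338 and 446 in the neuronal members and 42 and 44 in the remaining members. Requiring counting intervals apart from 0, also added later, left 99 and 99 between libraries. The count lower in members was 110 without doublets, 101 with median-of-ratios factors and 107 with the mean of CPM over cells. The count lower in the dko-labelled library was 312 at a mitochondrial maximum of 5%, 314 without doublets and 352 without Pou3f2. Median-of-ratios scaling moved the median of all genes by −0.13 and −0.14. Of single genes and list medians, 336 values stayed within their error, 130 moved and 3 reversed: thinned, the ratio between libraries was −3.14 for Eomes and 0.57 for Pdgfa, and with at least 2 markers the median of the neuron subtype factors was −0.18. The causes were not tested. Depth limits the comparisons, since the neuronal members hold 318046 and 201744 UMIs.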
